A study of Mus musculus with 53 samples.

Results

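The troponin genes were followed in the cerebella of newborn mice that lack Insm1, or Tead1 and Tead2, in the granule cell lineage. The members were taken by symbol: Tnnc1, Tnnc2, Tnni1, Tnni2, Tnni3, Tnnt1, Tnnt2 and Tnnt3, which are 8 of the 55573 genes of the P2 bulk tables and 8 of the 57010 genes of the P7 single-cell matrices.

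Troponin is the calcium switch of striated muscle. Its complex sits on the thin filament and has a calcium sensor (troponin C), a subunit that holds back the actin and myosin interaction (troponin I) and a subunit that ties the complex to tropomyosin (troponin T). Separate genes encode the forms of slow skeletal fibres (Tnni1, Tnnt1), fast skeletal fibres (Tnnc2, Tnni2, Tnnt3) and heart (Tnni3, Tnnt2), while Tnnc1 serves both slow fibres and heart. In embryonic skeletal muscle the slow forms and the cardiac troponin T gene Tnnt2 are known to be used before the fast forms, and a healthy cerebellum contains no striated muscle.

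Bulk RNA-seq at postnatal day 2 (P2) covered 4 Insm1fl/fl controls, 4 Atoh1Cre; Insm1fl/fl mutants, 3 Tead1fl/fl;Tead2fl/fl controls and 4 Atoh1Cre;Tead1fl/fl;Tead2fl/fl mutants, with 1 cerebellum from 1 pup in each library. Single-cell RNA-seq at P7 covered 2 controls and 3 mutants of each allele, again with 1 cerebellum per library and no pooling. All groups carry the floxed alleles and only the mutants carry Atoh1Cre, which acts in granule cell progenitors and other cells of the rhombic lip lineage, so most other cells of a mutant cerebellum keep their genes. INSM1 is a zinc finger repressor of neuroendocrine and neuronal progenitors, and TEAD1 and TEAD2 are the DNA-binding partners of YAP and TAZ. The Insm1 and the Tead1/2 libraries at P2 belong to different batches in the labels, so allele and batch cannot be told apart there. P7 library number 1 of each group came from all lobules, and numbers 2 and 3 from cerebella without lobules IX and X.

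The bulk libraries held 28066643 to 64518751 expected counts, and 79838 P7 barcodes were kept as cells, 4779 to 10710 per library, with median counts of 6866 to 10187 unique molecular identifiers (UMIs). No barcode was shared between P7 libraries. Insm1 transcripts were lower in the Insm1 mutants at P2 (log2 change -1.91, edgeR adjusted p = 0.0194) and at P7 (-2.63). In the libraries labelled Tead1/2 mutant, Tead2 was lower at P7 (-1.95) and Tead1 was higher (0.93), and neither gene passed the test at P2 over all libraries of the set. Tead2 stood at 26.2 CPM (counts scaled to the size of the library) in the library labelled Tead1/2 mutant 4, above the 21.5 to 25.7 CPM of the 3 controls, so the P2 Tead1/2 results are given with and without that library. Without it, of the 3 genes Insm1, Tead1 and Tead2, 1 was called higher and 1 lower, beside 3.19% of all genes. Insm1 was at 58.3 to 62.8 CPM in the Tead1/2 controls and at 70.8 to 105 CPM in the 4 Tead1/2 mutants, where Tead2 was at 17.6 to 26.2 CPM. The counts cover whole genes and do not show whether the floxed exons are gone. Of 13 skeletal muscle markers, 11 were called higher in the P2 Insm1 mutants, beside 0.689% of all genes tested. At P7 13 were called higher for each allele, beside 33.9% of all genes in the Insm1 and 48.6% in the Tead1/2 set. In the P2 Tead1/2 set edgeR called none of the 13, beside 0% of all genes, and 12 without mutant 4, beside 3.19%. With all 7 libraries, 12 of the 13 and 4052 of 20247 genes stood at an unadjusted p under 0.05.

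Promoter windows of 4 members are printed below, chosen by motif content and by place. Each window below runs from 250 bases before to 50 bases after the start site in RefSeq annotation of GRCm38.p6, 5′ to 3′ on the strand of the gene. Capitals mark the 2 motifs searched on both strands that occur in them: M-CAT (CATTCC, or GGAATG on the other strand), the recognition motif of TEAD proteins, and the E-box CAGCTG, which myogenic factors bind. Tnnt2 and Tnnc1 are shown because their windows hold M-CAT, and Tnnt1 and Tnni3 because they lie next to each other while, as given below, Tnnt1 rose and Tnni3 did not pass the test.
Tnnt2, chr1:135836084-135836383, plus strand: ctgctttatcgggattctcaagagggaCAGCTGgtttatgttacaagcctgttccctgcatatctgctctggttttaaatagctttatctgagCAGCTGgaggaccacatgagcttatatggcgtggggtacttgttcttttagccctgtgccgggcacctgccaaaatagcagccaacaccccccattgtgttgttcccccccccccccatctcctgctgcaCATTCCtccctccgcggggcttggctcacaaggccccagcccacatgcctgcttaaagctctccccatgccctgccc
Tnnc1, chr14:31208062-31208361, plus strand: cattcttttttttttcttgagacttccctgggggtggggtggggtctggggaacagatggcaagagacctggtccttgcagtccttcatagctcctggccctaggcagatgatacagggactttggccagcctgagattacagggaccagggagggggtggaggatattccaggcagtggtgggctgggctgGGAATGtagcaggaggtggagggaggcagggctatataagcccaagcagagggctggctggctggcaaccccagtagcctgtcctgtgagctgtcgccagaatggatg
Tnnt1, chr7:4515926-4516225, minus strand: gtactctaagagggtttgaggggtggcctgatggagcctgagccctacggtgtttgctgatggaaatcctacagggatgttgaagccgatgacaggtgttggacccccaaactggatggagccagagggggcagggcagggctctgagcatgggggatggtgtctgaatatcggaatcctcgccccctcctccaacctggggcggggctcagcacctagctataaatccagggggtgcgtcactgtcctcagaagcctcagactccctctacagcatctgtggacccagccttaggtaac
Tnni3, chr7:4522479-4522778, minus strand: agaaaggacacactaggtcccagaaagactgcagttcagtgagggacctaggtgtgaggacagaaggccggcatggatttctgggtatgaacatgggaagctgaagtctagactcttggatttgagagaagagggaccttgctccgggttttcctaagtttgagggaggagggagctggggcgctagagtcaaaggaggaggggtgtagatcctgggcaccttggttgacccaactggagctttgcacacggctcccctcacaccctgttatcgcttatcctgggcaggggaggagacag

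The M-CAT match began 27 bases before the start site in Tnnt2 and 58 bases before it in Tnnc1. The Tnnt2 window also held 2 E-boxes, and both windows of Tnni1, which overlap, held the same E-box. The core that MEF2 factors bind (CTA and TAG with 4 bases of any kind between) was in none of the 8 windows of the 6 members that had one in the table, and those of Tnnc2, Tnnt1, Tnni3 and the second Tnnt2 start held none of the motifs. Of all 32851 windows of this length in the table, 14.7% held CATTCC, 16.3% held CAGCTG and 3.69% held the MEF2 core. These matches are descriptions of letters, and no binding was measured here.

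At P2 the Insm1 mutant cerebellum already carried troponin transcripts of the slow, the fast and the cardiac kind. By edgeR's quasi-likelihood test with Benjamini-Hochberg adjustment over 19582 genes, 7 of the 8 members were higher in the mutants, beside a background of 0.689% of all genes tested (94 higher and 41 lower). The median log2 change of the 8 members was 2.68, against 0.01 over all genes tested. Tnni3, the cardiac troponin I, was the member that did not pass. In a bulk sample more cells that use a gene and more RNA of that gene per cell cannot be told apart.

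Troponin C transcripts rose from traces. Tnnc2, the fast calcium sensor, had 0.0964, 0.161, 0 and 0.0298 CPM in Insm1 controls 1 to 4, against 2.89, 1.62, 1.17 and 1.61 CPM in mutants 1 to 4, a log2 change of 4.56 ± 0.52 (SE, adjusted p = 0.00348). Every mutant stood above every control, and this was the largest fitted change among the members. Tnnc1, the slow and cardiac sensor, moved less, from 0.313, 0.645, 0.303 and 0.238 CPM to 1.75, 1.13, 0.833 and 1.36 CPM (1.76 ± 0.34, adjusted p = 0.0499). Its groups did not overlap either, and its adjusted p lay at the threshold of 0.05.

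Among the inhibitory subunits the slow gene led. Tnni1 had 0.217, 1.29, 0.121 and 0.0298 CPM in the 4 controls, against 12.1, 7.81, 4.97 and 8.39 CPM in the 4 Insm1 mutants (4.30 ± 0.62, adjusted p = 0.0113). Control 2 stood apart from the other controls and still lay below the lowest mutant. The same control was the highest for Tnni2, the fast inhibitory subunit, at 0.403 CPM, beside 0.0723, 0.182 and 0.0596 CPM in the others and 2.55, 1.19, 1.00 and 1.51 CPM in the mutants (3.13 ± 0.50, adjusted p = 0.0204). Tnni3 was at 0.386, 0.349, 0.243 and 0.536 CPM in controls and 0.655, 0.551, 0.40 and 0.536 CPM in mutants, and these ranges overlapped (0.52 ± 0.28, adjusted p = 0.618). CPM values are not divided by transcript length, so they rank samples for 1 gene and not genes against each other.

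The 3 tropomyosin-binding subunits all rose. Tnnt2, the cardiac and embryonic form, went from 0.0964, 0.618, 0.212 and 0.0894 CPM to 5.63, 4.21, 2.43 and 3.66 CPM (3.97 ± 0.48, adjusted p = 0.00483). Tnnt1, the slow form, had a measurable control level of 1.23, 1.10, 0.879 and 0.745 CPM and reached 6.55, 5.11, 2.60 and 4.23 CPM (2.23 ± 0.28, adjusted p = 0.00605). Tnnt3, the fast form, went from 0.699, 0.645, 0.606 and 0.656 CPM to 2.55, 2.35, 1.40 and 1.96 CPM (1.67 ± 0.21, adjusted p = 0.0063). For all 3 genes the groups did not overlap, and the share of all genes without overlap was not counted. Mutant 3 was the lowest mutant for these 3, as it was for every other member. Without control 1, 4 members passed the test rather than 7 (Tnnc2, Tnnt1, Tnnt2 and Tnnt3), in a fit that called 64 of 19820 genes rather than 135 of 19582.

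**Figure D1:**
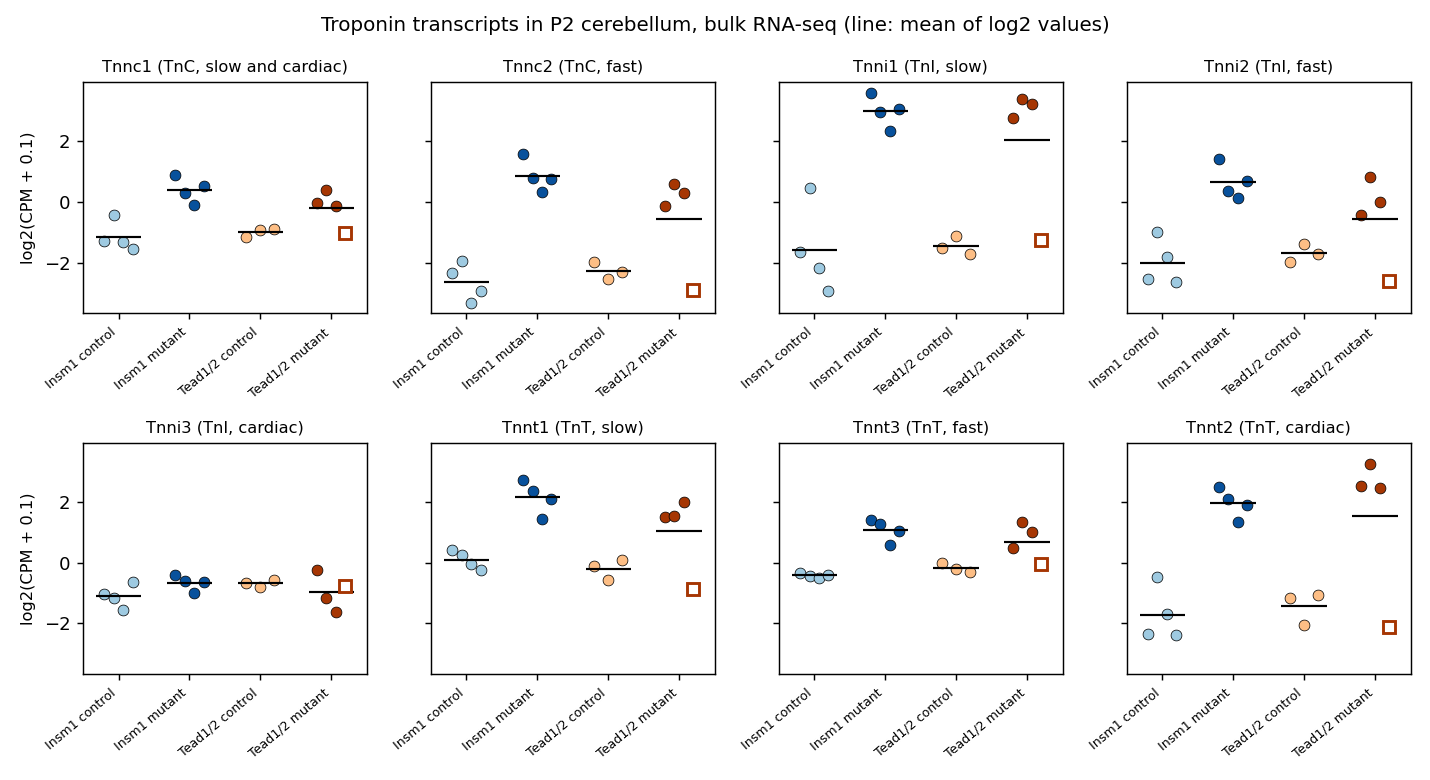
Troponin transcripts in P2 cerebellum by bulk RNA-seq, 1 panel per gene. The y axis is log2 of CPM plus 0.1, each point is 1 library, the line is the mean of the log2 values of a group, and the open square is the library labelled Tead1/2 mutant 4. The 4 Insm1 mutants lie above all Insm1 controls for 7 genes, in a comparison where edgeR called 0.689% of all genes. The share of all genes without overlap was not counted. For the genes that are high in the other Tead1/2 mutants, the open square lies among or below the Tead1/2 controls. Tnni3 shows overlapping groups.

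The P2 Tead1/2 mutants were split, with 3 libraries high in troponins and 1 at the level of controls. Over all 7 libraries no member passed the edgeR test, and neither did any of the 20247 genes tested (0%). At an unadjusted p under 0.05 stood 7 members and 4052 genes. Without the filter on low counts edgeR called 7 members and 1287 of 40946 genes, and DESeq2 called 2 of the 8 members, Tnni1 (adjusted p = 0.00115) and Tnnt2 (0.0133), beside 6.18% of its genes tested. Tnni1 was at 0.251, 0.356 and 0.205 CPM in the 3 controls and at 6.80, 10.6, 9.37 and 0.322 CPM in mutants 1 to 4 (log2 change 4.59 ± 0.93, edgeR adjusted p = 0.0898). Mutant 4 lay inside the range of controls while the other mutants were all far above it. Xist transcripts, which set the sex term below, stood above those of Ddx3y in mutant 4 and control 2 alone among these libraries. In the Insm1 set they did so in controls 1 to 4 and in mutants 1 and 2. With that term in the edgeR fit, 7 of 8 members stood at an unadjusted p under 0.05 in each set. In the fits without it, 1763 of 19582 genes (Insm1 set) and 4052 of 20247 (Tead1/2 set) stood there. At the stricter adjusted threshold the fits with the term called 88 genes in the Insm1 set and 3 in the Tead1/2 set.

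Mutant 4 also set the result for the other genes. Tnnt2 was at 0.351, 0.142 and 0.376 CPM in controls and at 5.70, 9.47, 5.45 and 0.129 CPM in mutants (4.20 ± 0.97, adjusted p = 0.0952). Tnnc2 was at 0.150, 0.0711 and 0.102 CPM in controls and at 0.807, 1.40, 1.12 and 0.0322 CPM in mutants (2.96 ± 0.82, adjusted p = 0.115). In both genes mutant 4 was the lowest of all 7 libraries. Tnni2 had 0.150, 0.285 and 0.205 CPM against 0.650, 1.68, 0.895 and 0.0644 CPM, and Tnnt1 had 0.827, 0.569 and 0.957 CPM against 2.76, 2.83, 3.92 and 0.451 CPM. Mutant 4 was again below all controls in both.

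Without mutant 4, 7 members were called higher in the Tead1/2 mutants, beside 3.19% of the 20234 genes tested. These were Tnni1 (4.96 ± 0.24, adjusted p = 4.6e-06), Tnnt2 (4.58 ± 0.33, 9.8e-05), Tnnc2 (3.31 ± 0.37, 0.0015), Tnnt1 (1.99 ± 0.24, 0.00209), Tnni2 (2.31 ± 0.43, 0.0233), Tnnt3 (1.21 ± 0.25, 0.0344) and Tnnc1 (1.24 ± 0.27, 0.0402). Tnnt3 had 0.902, 0.759 and 0.717 CPM in controls and 1.3, 2.42, 1.90 and 0.870 CPM in mutants. Tnnc1 had 0.351, 0.427 and 0.444 CPM in controls and 0.875, 1.23, 0.811 and 0.386 CPM in mutants. For these less changed genes mutant 4 lay inside the control range, and leaving it out was a choice made after its values were seen. Tnni3 was at 0.526, 0.474 and 0.581 CPM in controls and 0.740, 0.343, 0.224 and 0.483 CPM in mutants, with overlapping groups and a log2 change of -0.28 without mutant 4 (adjusted p = 0.745).

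The difference between the Tead1/2 and the Insm1 effect at P2 was tested in all 15 libraries. By edgeR none of the 8 members passed, nor any other gene (0% of 20837). At an unadjusted p under 0.05 stood 0 members and 1435 genes, and DESeq2 called 17 genes. The differences of the members ran from -1.60 to 0.29 on the log2 scale with standard errors of 0.40 to 1.34.

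At P7 the same 7 members were high in every mutant library of both alleles. UMIs were summed over the cells of each library and tested with edgeR. All 7 were higher in the Insm1 mutants, beside 33.9% of the 24602 genes tested, and all 7 were higher in the Tead1/2 mutants, beside 48.6%. The median log2 change of the 8 members was 5.80 and 7.505, against 0.04 and 0.06 over all genes tested. At this background a call alone says little, and the size of the change is the measurement of interest.

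All 3 troponin T genes rose in the mutants of both alleles. Among controls of the Insm1 set Tnnt2 had 1.46 and 1.21 CPM, and among mutants 105, 82.7 and 79.8 CPM (log2 change 6.07 ± 0.23, adjusted p = 4.35e-08). The Tead1/2 set had 1.18 and 1.37 CPM in controls and 277, 359 and 241 CPM in mutants (7.85 ± 0.25, adjusted p = 8.86e-09). The lowest Tead1/2 mutant stood above the highest Insm1 mutant. Tnnt1 was at 1.06 and 1.12 CPM against 84.6, 92.3 and 82.9 CPM in the Insm1 set, and at 0.966 and 1.01 CPM against 211, 214 and 150 CPM in the Tead1/2 set. Tnnt3 was at 1.3 and 1.19 CPM against 71.7, 78.4 and 69.6 CPM, and at 1.01 and 1.07 CPM against 280, 250 and 177 CPM. The log2 changes were 6.32 ± 0.18 and 7.60 ± 0.20 for Tnnt1, and 5.89 ± 0.21 and 7.82 ± 0.23 for Tnnt3.

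The inhibitory subunits split by tissue type. For Tnni1 the Insm1 set had 1.09 and 1.59 CPM in controls and 65.0, 75.5 and 69.5 CPM in the mutants, and the Tead1/2 set had 1.83 and 2.01 CPM against 149, 186 and 143 CPM (5.72 ± 0.19 and 6.37 ± 0.19). Tnni2 was at 0.443 and 0.382 CPM against 18.7, 23.5 and 20.5 CPM, and at 0.233 and 0.247 CPM against 57.5, 57.5 and 41.7 CPM (5.67 ± 0.20 and 7.76 ± 0.23). Both skeletal genes were far above controls in all 6 mutants. Tnni3 had 0.903 and 0.724 CPM in Insm1 controls against 0.732, 0.501 and 0.533 CPM in mutants, and 0.748 and 0.865 CPM in Tead1/2 controls against 0.555, 0.754 and 0.658 CPM in mutants. Its log2 changes were -0.46 ± 0.21 (adjusted p = 0.119) and -0.28 ± 0.21 (0.297), and in the fit without Insm1 mutant 1 it was called lower in the Insm1 mutants. Of the 2 cardiac forms, then, Tnnt2 was among the members with the largest changes and Tnni3 did not pass the test in any of the 4 comparisons with controls.

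Troponin C repeated the pattern of P2. Tnnc2 was at 0.942 and 0.848 CPM against 54.7, 68.4 and 52.9 CPM in the Insm1 set (6.05 ± 0.19), and at 0.763 and 0.803 CPM against 145, 148 and 109 CPM in the Tead1/2 set (7.42 ± 0.21). Tnnc1 was at 0.283 and 0.359 CPM against 6.05, 7.75 and 6.29 CPM (4.39 ± 0.21), and at 0.283 and 0.185 CPM against 28.4, 25 and 21.3 CPM (6.68 ± 0.24). Tnnc1 had the smallest change of the 7 genes in the Insm1 set.

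**Figure D2:**
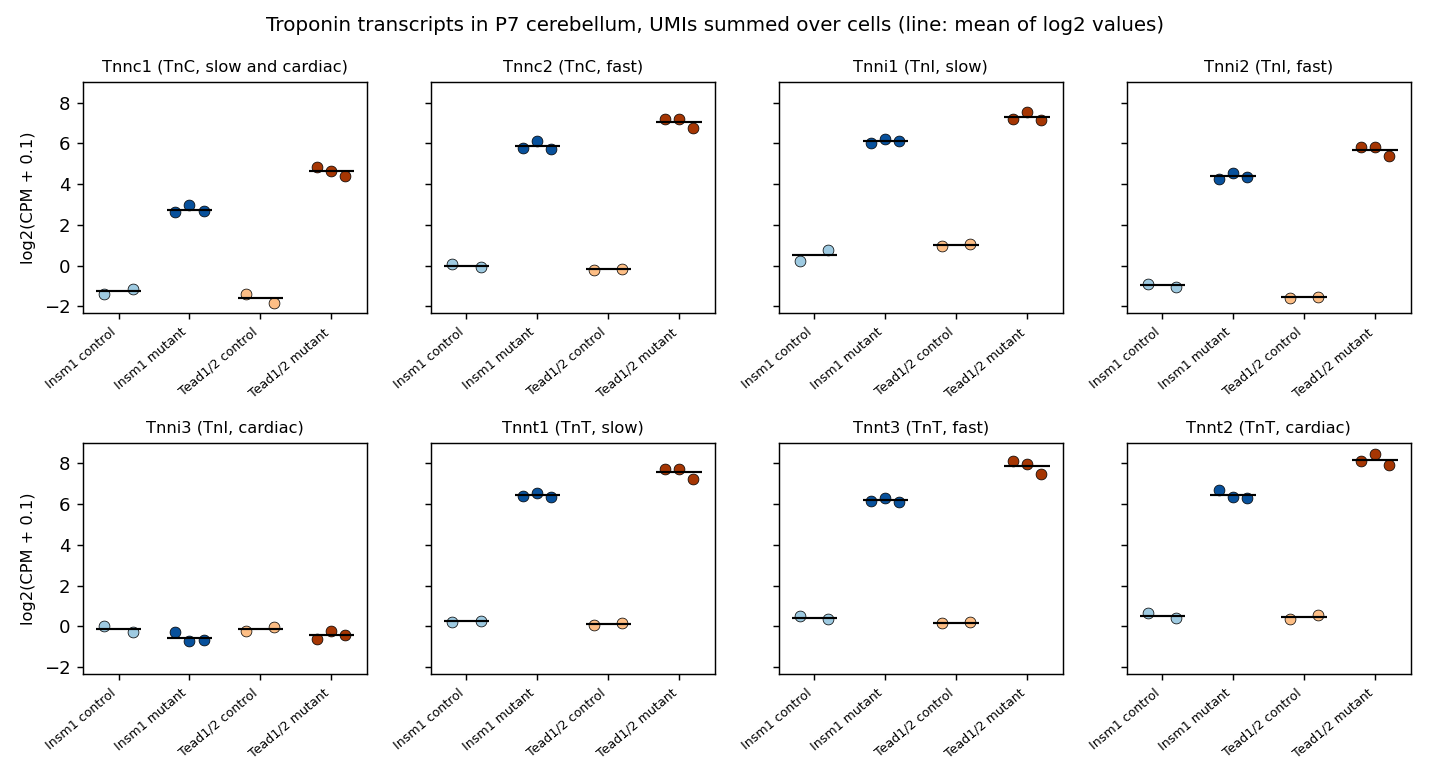
Troponin transcripts in P7 cerebellum, UMIs summed over the cells of each library. The y axis is log2 of CPM plus 0.1, each point is 1 library and the line is the mean of the log2 values of a group. All 6 mutant libraries lie far above all 4 controls for 7 genes, in comparisons where edgeR called 33.9% and 48.6% of all genes. The share of all genes without overlap was not counted. Tnni3 lies within 0.501 to 0.903 CPM in all 10 libraries.

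The Tead1/2 effect was larger than the Insm1 effect for 6 of the 8 members at P7, tested as an interaction in 1 fit of all 10 libraries and beside 3.68% of all genes tested. The difference was 2.29 ± 0.31 on the log2 scale for Tnnc1 and 2.09 ± 0.30 for Tnni2. It was 1.93 ± 0.26 for Tnnt3, 1.77 ± 0.28 for Tnnt2, 1.37 ± 0.25 for Tnnc2 and 1.27 ± 0.23 for Tnnt1, with adjusted p from 0.00708 to 0.0177. Tnni1 (0.66 ± 0.22, adjusted p = 0.140) and Tnni3 (0.17 ± 0.30, 0.794) did not pass. When barcodes marked as doublets by Scrublet were removed, edgeR called none of the 8, beside 538 of 19690 genes called. At an unadjusted p under 0.05 stood 5 of the 8, and the share of all genes there was not counted. The differences were then 2.07 to 3.22 for the 7 other than Tnni3, with standard errors of up to 1.3. Over all deposited barcodes 1 member, Tnnc1, passed, beside 631 of 24989 genes.

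To find the cells that carry these transcripts, cells were clustered with the 8 troponin genes left out of the clustering. Clusters 25, 30, 31 and 32 were called skeletal muscle-like from at least 8 of 13 markers such as Myog, Ttn, Acta1 and Myh3. They held 910, 1075 and 666 cells in the Insm1 mutants (12.6%, 14.1% and 13.9% of cells) and 1479, 2509 and 1453 cells in the Tead1/2 mutants (19.7%, 25.8% and 19.1%), against 5 and 1 cells in the Insm1 controls and 0 in the Tead1/2 controls. These cells held 71.1%, 71.0% and 60.4% of all troponin UMIs of the Insm1 mutants and 82.5%, 68.7% and 73.7% of those of the Tead1/2 mutants. Of 8 heart markers in the P7 sums, Nppa, Nppb, Nkx2-5, Tbx5 and Myl7 stayed at or under 0.124 CPM in all 10 libraries. The other 3 were called higher in the mutants of both alleles: Mybpc3, at 0.584 to 1.42 CPM in controls, had 4.38 to 6.33 CPM in the Insm1 and 5.77 to 9.20 CPM in the Tead1/2 mutants, Myh6 had 0.976 to 1.27 CPM and 3.75 to 7.01 CPM against at most 0.145 CPM, and Gata4 had at most 0.582 CPM. Their part in the Tnnt2 values was not tested.

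Cells that carried several troponins at once were rare in the controls. After thinning each cell to 2000 UMIs, 0.0473% and 0.0719% of cells in the Insm1 controls had UMIs of at least 2 troponin genes, against 7.0%, 6.92% and 7.0% in the mutants. In the Tead1/2 set the shares were 0.0105% and 0.0631% against 16.2%, 23.6% and 16.6%. Mutants and controls did not overlap, and the exact permutation p was 0.2 for each allele, the smallest that 2 against 3 libraries can give. Within the muscle-like class the share was 32.1% to 37.6% in the Insm1 mutants and 59.1% to 60.4% in the Tead1/2 mutants. Among other classes of the same libraries the share was at most 0.312% in granule neuron-like and 0.719% in granule progenitor-like cells, and the mural cells of the Tead1/2 mutants had 0 of 79, which by counting error alone allows a share of up to 3.8%. In the Insm1 and the Tead1/2 mutants the share reached 8.51% and 22.5% in fibroblast-like cells and 8.26% and 15.9% in microglia-like cells. It reached 8.55% and 17.6% in endothelium-like cells and 15.4% and 21.7% in ependymal-like cells. In Purkinje-like cells it reached 9.26% and 31.8%, the latter in 7 of 22 cells.

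The muscle-like clusters differed in which troponins they used. Clusters 31 and 32 had Myog, the factor that starts muscle differentiation, among their 10 leading genes, and clusters 25 and 30 had Neb and Myh8 among theirs, the genes of the giant thin filament protein nebulin and of perinatal myosin. Clusters 31 and 32 are called Myog-led below for that gene, although Alk, Rarb and Esr1 came before it in both. Cluster 33 held all 13 muscle markers but had Acta2, a smooth muscle actin that young skeletal muscle cells also use, as the first named gene among its leading genes, and was left unnamed. In the mutant libraries, between 91.3% and 100% of the barcodes of clusters 25 and 31, and 47.5% to 93.5% of those of cluster 30, were marked as doublets by Scrublet, which also marked 23.5% to 58.9% of the cells in each of the 10 libraries. Cluster 32 had 1.81% to 7.32% marked in the mutant libraries. Marked barcodes had a median of 15378 to 26602 UMIs per library and unmarked ones 4358 to 7841, and the marked ones were kept.

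In the Myog-led clusters the share of cells with a UMI of Tnni1 lay above those of the non-muscle classes compared below, and the fast genes were found in few cells. After thinning, 18.4%, 22.3% and 20.2% of these cells in the Insm1 mutants had a Tnni1 UMI, and 28.3%, 31.1% and 33.2% did in the Tead1/2 mutants. Tnnt1 was found in 15% to 21.2% of cells over the 6 mutant libraries, and Tnnt2 in 13.7%, 4.39% and 7.56% of cells in the Insm1 mutants and 30.1%, 37.3% and 32.3% in the Tead1/2 mutants. The fast genes Tnni2, Tnnt3 and Tnnc2 were found in at most 0.840%, 3.45% and 2.09% of these cells, and Tnnc1 in at most 0.280%. Granule neuron-like cells had a Tnni1 UMI in 0.481% and a Tnni2 UMI in 0.240% of cells in the Insm1 mutants and in 0.578% and 0.289% in the Tead1/2 mutants, at median depths of 5264 to 7027 UMIs against 5342 to 8241 UMIs. They are not a reference free of troponin, since their Tnni1 per UMI lay above controls in most mutant libraries, as given below. Fibroblast-like cells of the same libraries had a Tnni1 UMI in 6.09% and 9.98% of cells and a Tnni2 UMI in 1.88% and 3.01%, and microglia-like cells in 4.33% and 8.21% and in 2.83% and 2.71%, for the Insm1 and the Tead1/2 mutants. The Tnni1 shares of the Myog-led clusters lay above those of these 3 classes, while the Tnni2 shares, from 0% to 0.840%, lay around or below them and are not read as expression. For Tnnt1 the shares in granule neuron-like, fibroblast-like and microglia-like cells were 0.511%, 7.68% and 5.99% in the Insm1 mutants and 0.651%, 10.1% and 9.01% in the Tead1/2 mutants. For Tnnt2 they were 0.421%, 6.52% and 4.49% and 1.23%, 15.8% and 13.1%, and the Myog-led clusters of Insm1 mutants 2 and 3 lay near these.

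Per UMI the order was not the same for all genes. Tnni1 was at 94.2 to 114 CPM in the Myog-led clusters of the Insm1 mutants and 158 to 191 CPM in those of the Tead1/2 mutants, against 63.1 to 71.5 CPM and 84.7 to 161 CPM in fibroblast-like cells, while the 5 ependymal-like cells of Insm1 mutant 2 had 162 CPM. Tnnt1 was at 81.9 to 95.7 CPM and 98.2 to 123 CPM in the Myog-led clusters, against 74.6 to 79.3 CPM and 85.9 to 191 CPM in fibroblast-like cells and 50.2 to 89.0 CPM and 159 to 175 CPM in microglia-like cells. Tnnt2 was at 33.3 to 90.9 CPM and 261 to 301 CPM, against 68.3 to 108 CPM and 151 to 321 CPM in fibroblast-like cells. The part of free RNA in the Tnnt1 and Tnnt2 values of the Myog-led clusters was not tested, and since shares and CPM ordered the classes differently, no order is read for these 2 genes.

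In cluster 30, with Neb as its first gene, all members but Tnni3 were common. Its cells had a Tnnt3 UMI in 54.4%, 58.2% and 55.6% of cases in the Insm1 mutants and 72.9%, 65.5% and 67.6% in the Tead1/2 mutants. Tnnc2 was found in 47.0% to 55.7% of cells over the 6 libraries, Tnni2 in 20.6% to 30.5% and Tnnc1 in 9.27% to 17.3%. The slow and embryonic genes stayed with them: of the cells with a Tnnt3 UMI, 66.3% to 75.0% also had a Tnnt1 UMI and 65.5% to 80% also had a Tnnt2 UMI, so fast and slow forms were counted under the same barcodes. Tnni3 was found in at most 0.316% of the cells of this cluster.

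In the unnamed cluster 33, which had at most 8.05% of barcodes marked, the fast genes lay between the Myog-led clusters and cluster 30. Tnni1 lay near the level of cluster 30, and Tnnt2 lay below it in the Insm1 mutants and above it in the Tead1/2 mutants. Tnni1 was found in 52.0% to 66.9% of its cells over the 6 mutant libraries, and Tnnt2 in 58.4%, 44.2% and 41.9% in the Insm1 mutants and 80.2%, 86.4% and 85.8% in the Tead1/2 mutants. Tnnt3 was found in 12.8% to 33.9% of cells and Tnni2 in 4.35% to 6.98%. Tnnc1 was found in at most 1.45% and Tnni3 in at most 1.16% of its cells, at a median depth of 6342 to 8471 UMIs.

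**Figure D3:**
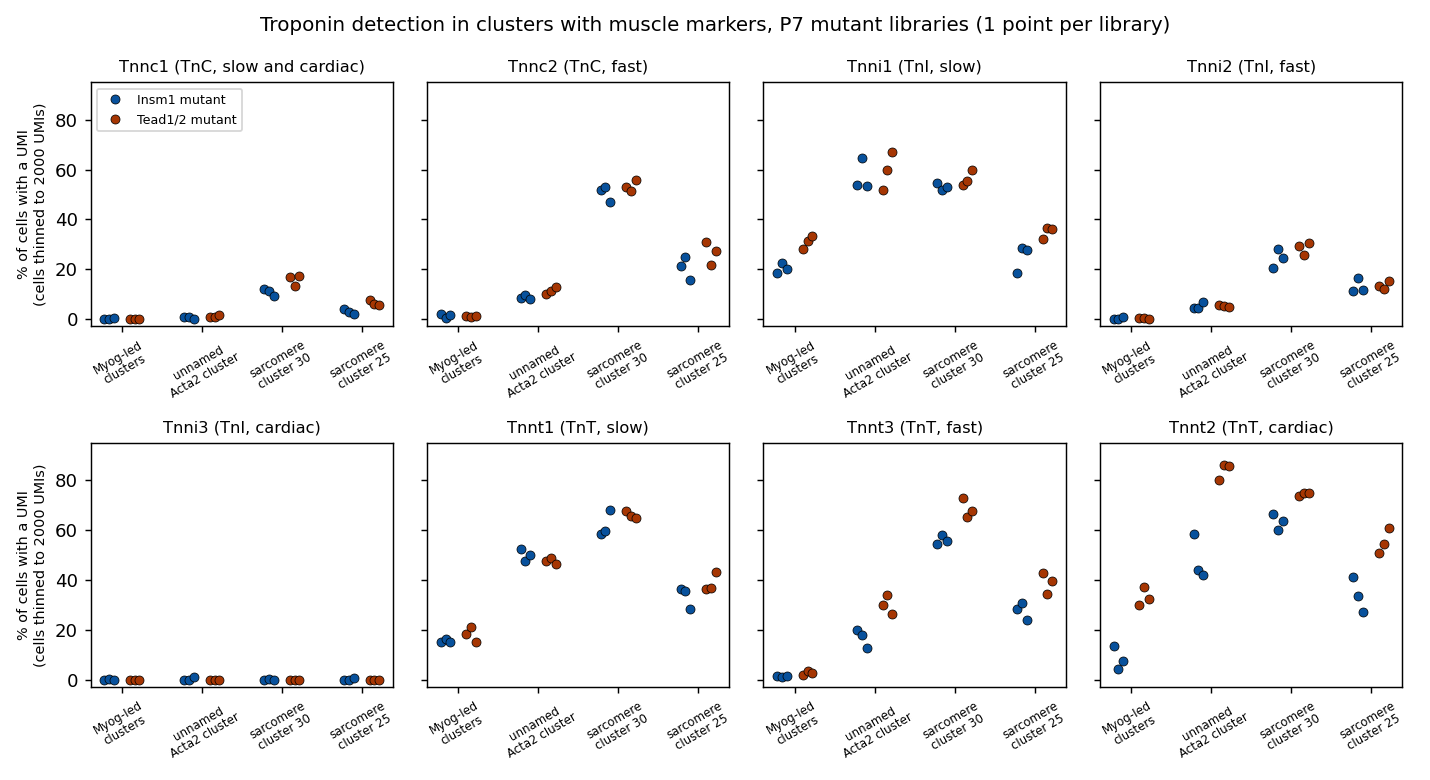
Share of cells with a UMI of each troponin gene in clusters with muscle markers, after thinning to 2000 UMIs per cell. The x axis gives the cluster set, the y axis the percent of cells, and each point is 1 mutant library. Tnni1, Tnnt1 and Tnnt2 are found in all sets, while Tnni2, Tnnt3 and Tnnc2 are near 0 in the Myog-led clusters and reach 20.6% to 72.9% in cluster 30.

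Shares within a subunit give the isoform make-up without the cell number, and since UMIs of different genes are not captured alike they are compared between clusters and between alleles, not between genes. Of troponin I UMIs, the fast gene Tnni2 gave 1.05% to 2.62% in the Myog-led clusters and 26.3% to 31.5% in clusters 25 and 30 together. Of troponin T UMIs, the fast gene Tnnt3 gave 4.26% to 7.42% and 30.3% to 39.3%. Between the alleles, 3 of the 12 shares compared had groups that did not overlap. Of troponin T UMIs in the Myog-led clusters, the cardiac gene Tnnt2 gave 45.8%, 24.6% and 33.8% in the Insm1 mutants and 65.9%, 66.3% and 70.1% in the Tead1/2 mutants. The other two were the share of the fast gene Tnnc2 in troponin C UMIs of clusters 25 and 30, at a mean of 89.8% in the Insm1 mutants and 84.2% in the Tead1/2 mutants, and the same share in the whole muscle-like class, also at 89.8% and 84.2%. For each of the 3 the exact permutation p was 0.1, the smallest that 3 against 3 libraries can give, and the adjusted p was 0.4. In clusters 25 and 30 the Tnnt2 share of troponin T was 32.7% to 38.4% and 33.0% to 40.6%.

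**Figure D4:**
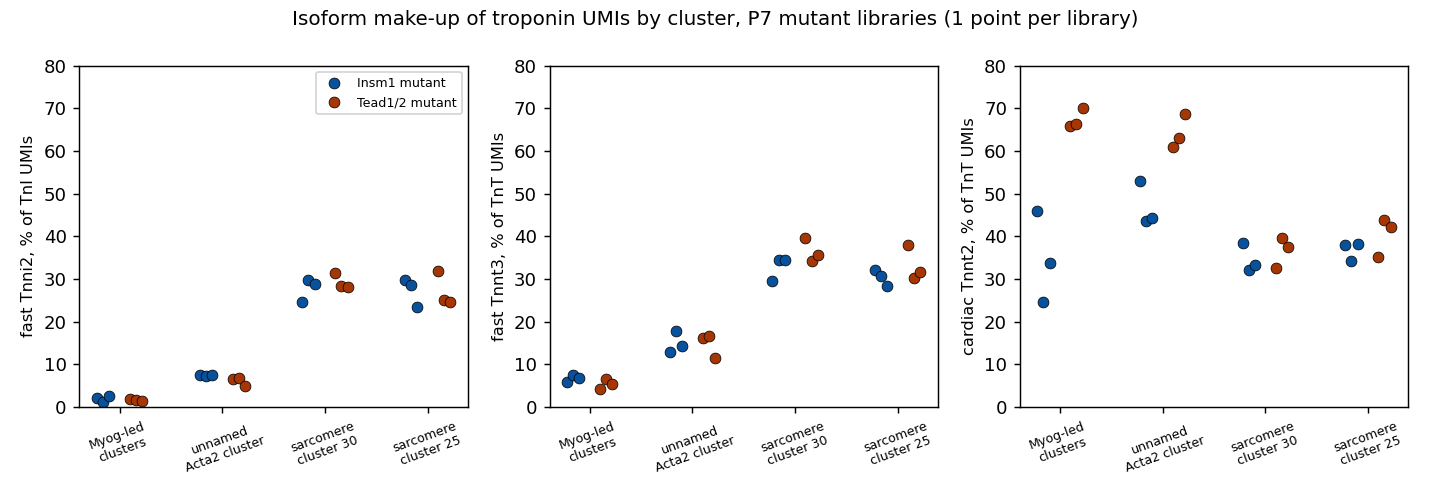
Isoform make-up of troponin UMIs in 4 cluster sets of the P7 mutant libraries, 1 point per library. The panels give fast Tnni2 in percent of troponin I UMIs, fast Tnnt3 in percent of troponin T UMIs and cardiac Tnnt2 in percent of troponin T UMIs. The fast shares are lowest in the Myog-led clusters, and the Tnnt2 share there is 24.6% to 45.8% in Insm1 mutants and 65.9% to 70.1% in Tead1/2 mutants.

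Within the muscle-like class the Tead1/2 mutants had more troponin per UMI than the Insm1 mutants. Of the 8 members, 7 were called higher, beside 29.2% of the 18420 genes tested (2796 higher and 2581 lower), and their median log2 difference was 0.85 against 0.00 over all genes tested. Tnnc1 was at 21.9, 26.6 and 19.3 CPM in the Insm1 mutants and 70.0, 49.8 and 67.1 CPM in the Tead1/2 mutants (1.51 ± 0.16, adjusted p = 2.87e-04). Tnnt3 was at 257, 264 and 222 CPM against 669, 485 and 545 CPM (1.25 ± 0.13, 2.63e-04), and Tnnt2 at 343, 264 and 253 CPM against 594, 627 and 650 CPM (1.18 ± 0.11, 1.78e-04). The groups did not overlap for any of the 3, and the share of all genes without overlap was not counted.

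The other members differed by less. Tnni2 was higher by 0.92 ± 0.11 on the log2 scale, Tnni1 by 0.78 ± 0.07, Tnnc2 by 0.78 ± 0.12 and Tnnt1 by 0.75 ± 0.10. Tnni3 stayed at 0.304 to 0.601 CPM in all 6 libraries (0.20 ± 0.33, adjusted p = 0.689). The Myog-led clusters held 529 of 910, 570 of 1075 and 358 of 666 muscle-like cells in the Insm1 mutants, and 554 of 1479, 1002 of 2509 and 613 of 1453 in the Tead1/2 mutants, so the mix of clusters differed between the groups. In the Myog-led clusters alone, Tnnt2 (2.29 ± 0.25, adjusted p = 9.73e-05), Tnnt3 (1.15 ± 0.20, 0.00274) and Tnni1 (0.70 ± 0.09, 3.45e-04) were higher and 3 other tested members did not pass, Tnnt1 among them (0.31 ± 0.10, 0.0737), in a fit that called 1216 of 13208 genes. Tnnt3 was found in few of these cells, as given above, and its shares were not set beside those of non-muscle classes. The part of free RNA in these differences was not tested. In cluster 30 alone 6 of 7 members tested were higher, by 0.33 for Tnnt1 to 1.04 for Tnnc1, with 2700 of 16235 genes called, and Tnnc2 did not pass (0.28 ± 0.10, 0.1). In muscle-like clusters remade without the marked barcodes, edgeR called none of 7 members, beside 552 of 13946 genes. The differences were 0.59 to 1.32, with adjusted p of 0.105 to 0.407 (3 members at an unadjusted p under 0.05).

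Outside the muscle-like class the mutants also carried troponin UMIs, and the ratio of the slow pair differed between classes. Microglia-like cells had 0.579 to 1.70 CPM of Tnnt1 in the 4 controls, 50.2, 89.0 and 72.8 CPM in the Insm1 mutants and 164, 175 and 159 CPM in the Tead1/2 mutants. Their ratio of Tnnt1 to Tnni1 UMIs was 1.23 to 1.33 and 1.13 to 1.44 in the mutants of the 2 alleles, against 1.2 to 1.36 and 1.13 to 1.49 in the muscle-like class. It was 1.19 to 1.32 and 1.09 to 1.46 in endothelium-like cells, and lower in astroglia-like cells (0.840 to 1.18 and 0.586 to 0.915), GABAergic interneuron-like cells (0.976 to 1.11 and 0.716 to 0.974) and oligodendrocyte lineage-like cells (0.729 to 1.01 and 0.529 to 0.949). Scrublet marked 69.7% to 78.0% of the microglia-like barcodes of the Insm1 mutants and 29.8% to 52.2% of those of the Tead1/2 mutants, and the part of free RNA and of doublets in these values was not tested.

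Granule progenitor-like cells, which belong to the lineage that Atoh1Cre acts in, had more Tnnt1 than Tnni1 UMIs in all mutants. The Insm1 libraries had 0.910 and 0.819 CPM of Tnnt1 without the deletion, against 4.89, 6.18 and 6.5 CPM with it (2.66 ± 0.28, adjusted p = 1.89e-05). For the Tead1/2 alleles it was 0.852 and 0.800 CPM against 10.4, 18.9 and 14.6 CPM (4.06 ± 0.26, adjusted p = 2.72e-07). These values rest on 49 and 24 UMIs in Insm1 controls and 63, 88 and 49 in mutants, and on 39 and 26 against 143, 301 and 222 in the Tead1/2 set. Here the ratio of Tnnt1 to Tnni1 UMIs was 2.23 to 4.89 in Insm1 mutants and 3.86 to 5.10 in Tead1/2 mutants, above the range of the muscle-like and the microglia-like cells of the same libraries. In granule neuron-like cells it was 1.13 to 3.86 and 1.05 to 5.0, from 6 to 27 Tnni1 UMIs per library, so these ranges overlapped those of the progenitor-like cells.

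Of the 8 members, 3 were called higher in granule progenitor-like cells of the Insm1 mutants, beside 22% of the 16041 genes tested, and 7 in those of the Tead1/2 mutants, beside 23.7%. The further 2 in the Insm1 mutants were Tnnt2 (1.32 ± 0.40, adjusted p = 0.0343) and Tnnt3 (1.25 ± 0.38, 0.0328), and the further 6 in the Tead1/2 mutants had log2 changes of 1.90 to 2.34. The class was filled by different clusters: control cells lay mostly in clusters 3, 5, 6 and 11, and mutant cells mostly in clusters 7 and 28. Cluster 3 gave 1621 of the 4172 cells of Insm1 control 1 and 28 or fewer cells of any mutant. It shares leading genes such as Nrg1, Gprin3 and Cntn2 with the granule neuron-like cluster 8. Cluster 28 was named from 3 progenitor markers and shares the leading genes Runx1t1 and Atp2b3 with the granule neuron-like cluster 27. Scrublet marked 40.6% to 52.7% of the control barcodes and 8.26% to 22.7% of the mutant barcodes of this class. Granule neuron-like cells of the mutants had 2.29 to 7.78 CPM of Tnnt1 and 0.889 to 3.69 CPM of Tnni1, above the 0.599 to 1.19 CPM of Tnni1 in controls in 5 of 6 libraries.

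**Figure D5:**
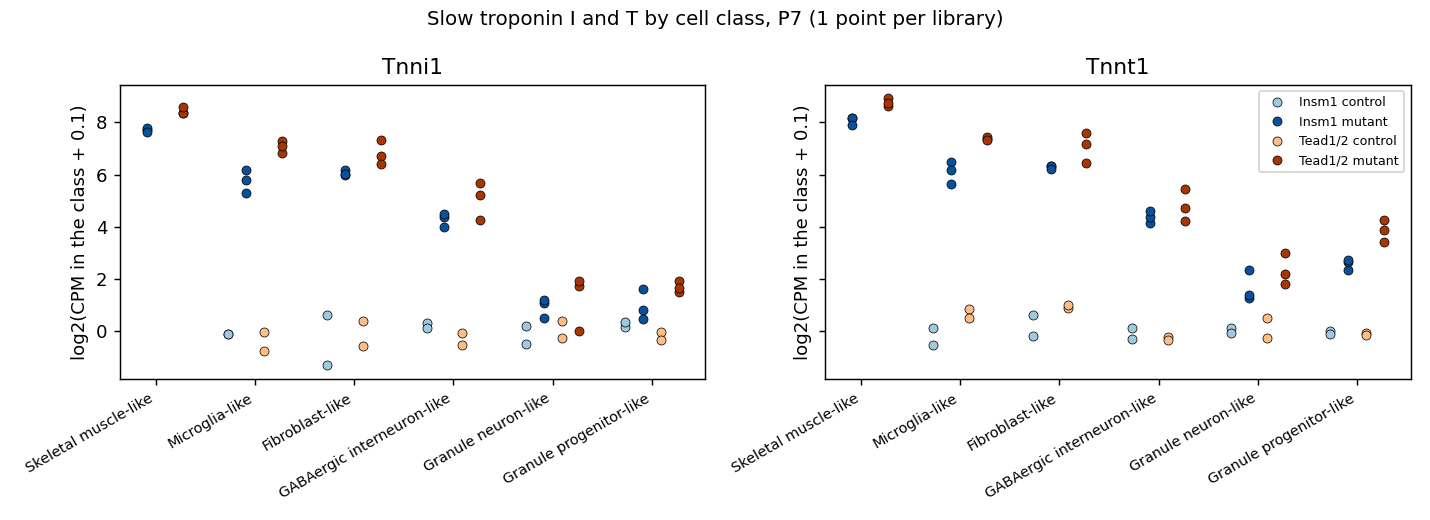
Slow troponin I (Tnni1) and slow troponin T (Tnnt1) by cell class at P7. The y axis is log2 of the CPM within the class plus 0.1, each point is 1 library, and classes with no point for a control group have no cells there or too few to plot. Among the named classes muscle-like cells are the highest for both genes, and in granule progenitor-like cells Tnnt1 separates mutants (4.89 to 18.9 CPM) from controls (0.800 to 0.910 CPM) more widely than Tnni1 does (1.26 to 3.70 CPM in mutants).

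In controls, Tnni1 and Tnni3 were highest in different cell classes. Oligodendrocyte lineage-like cells had 1.10 and 8.22 CPM of Tnni1 in Insm1 controls, and 12.4 and 11.2 CPM in Tead1/2 controls, while in the other named non-muscle classes of controls it reached at most 2.43 CPM. Insm1 control 1 was the exception, at the level of other classes. Tnnt1 did not go with it, at 0.694 to 1.07 CPM in the same cells. Tnni3 was highest in ependymal-like cells, the ciliated cells that line the ventricles, at 8.25 and 3.37 CPM in Insm1 controls, 7.05, 14.3 and 5.59 CPM in Insm1 mutants, 8.51 and 1.74 CPM in Tead1/2 controls and 16.8, 6.31 and 8.59 CPM in Tead1/2 mutants. These are 1 to 29 UMIs per library, and its level in muscle-like cells of the mutants was 0.304 to 0.601 CPM.

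Several partners of troponin on the thin filament were called too. Of 14 genes listed, 12 were tested at P2 in the Insm1 set and 6 were called higher, against 0.689% of all genes called, led by Lmod3 (5.54), a nucleator of actin filaments, Actc1 (4.26) and Acta1 (2.15), the cardiac and skeletal actins, and Neb (1.29). The size of the Lmod3 change rests on 1 count in the controls together, against 66 in the mutants. In the Tead1/2 set without mutant 4, 4 of 11 were called higher, against 3.19% of all genes: Actc1 (5.72), Tpm2 (1.27), a skeletal tropomyosin, Acta1 (1.05) and Nebl (0.40). With all 7 libraries edgeR called none of 12, against 0% of all genes. At an unadjusted p under 0.05 stood 6 of the 12 and 4052 of 20247 genes. At P7, 10 of 14 rose and 3 fell in the Insm1 set, and 10 rose and 4 fell in the Tead1/2 set, against 33.9% and 48.6% of all genes called. The 4 that fell in the latter were Tpm3 (-0.22), a tropomyosin of slow fibres and of many non-muscle cells, the tropomyosin gene Tpm4 (-0.52) and the tropomodulin genes Tmod2 (-0.39) and Tmod3 (-0.29), and Acta1 (7.91), Lmod2 (7.80), Actc1 (7.62) and Neb (7.55) had the largest changes.

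Among the companions of slow, fast and developing fibres, 5 of 11 tested were called at P2 in the Insm1 set, against 0.689% of all genes. In the P2 Tead1/2 set edgeR called none of 12 tested, against 0% of all genes. At an unadjusted p under 0.05 stood 5 of the 12 and 4052 of 20247 genes. Without mutant 4 edgeR called 5 of 12, against 3.19% of all genes: Myl1 (3.74), Myh3 (3.33), Mylpf (3.09), Atp2a1 (2.08) and Casq2 (0.96). At P2 in the Insm1 mutants, the called ones were Myh3 (4.22) and Myl4 (2.13) of 3 developmental genes, Mylpf (4.32) and Myl1 (3.86) of 4 fast genes tested, and Myoz2 (4.48) of 4 slow genes tested. At P7 all 3 developmental genes, 8 of 9 fast genes and 6 of 6 slow genes rose in the Insm1 set, with median log2 changes of 6.07, 4.50 and 3.70. In the Tead1/2 set 3 of 3, 9 of 9 and 6 of 6 rose, with medians of 8.10, 7.21 and 5.64, and 33.9% and 48.6% of all genes were called in these fits. Heart markers had 4 of 8 tested, of which Gata4 (2.42 and 3.21), Myh6 (3.19 and 5.63), a myosin of heart muscle, and Mybpc3 (2.82 and 2.62) rose in the Insm1 and the Tead1/2 set and Nppa did not pass. Of 8 smooth muscle and mural markers, Acta2 (6.53 and 6.20) and Des (5.96 and 7.29), which skeletal muscle also expresses, rose in both sets and Pdgfrb (0.62) in the Tead1/2 set, while Myh11, Tagln, Cnn1, Rgs5 and Kcnj8 did not pass.

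The troponin genes lie in 3 pairs of a troponin I and a troponin T gene, with Tnnc1 and Tnnc2 apart, and 22 neighbouring genes were read beside them. In the P2 Insm1 set edgeR called none of 19 tested neighbours, with 3 at an unadjusted p under 0.05 (Csrp1, Stab1 and Sema3g). Over all genes this fit called 0.689%, and 1763 of 19582 stood at that unadjusted p. In the P2 Tead1/2 set edgeR called none of 20 with all 7 libraries, beside 0% of all genes. At an unadjusted p under 0.05 stood 4 of the 20 and 4052 of 20247 genes, a similar share. Without mutant 4 Sema3g, next to Tnnc1, was lower (-1.14) and none rose, beside 3.19% of all genes called. At P7, 10 of 22 rose and 3 fell for each allele, against a background of 33.9% and 48.6% called. Lad1, which lies between Tnni1 and Tnnt2, rose by 4.95 and 3.54 on the log2 scale in the Insm1 and the Tead1/2 set, and Lsp1, between Tnni2 and Tnnt3, by 1.27 and 1.83. Dnaaf3, which begins next to Tnni3 on chromosome 7 and serves ciliary dynein assembly, was lower in both (-0.67 and -0.65).

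The genes whose levels were most like the mean of the 8 members were named by correlation alone, and several are known muscle genes. Over the 15 P2 libraries these were Myl1 (Pearson r = 0.984), Mylpf (0.984), Gm28653 (0.980), Cav3 (0.979) and Myh3 (0.979). Over the 10 P7 sums they were Fam78a (1.00), Actn2, Tpm2, Trdn and Des (0.999 each). These correlations describe libraries that share allele, batch and depth.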

How the data were processed

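Bulk RNA-seq of P2 cerebella and Parse Evercode WT v3 single-cell RNA-seq of P7 cerebella were used; chromatin files were not used here. For the bulk libraries the deposited values are expected counts from RSEM and UMI counts per barcode for the single-cell libraries. The submitters' processing notes list STAR 2.7.9a and RSEM 1.3.3, and name builds GRCm38.p6 and mm10 with no role for either. Deposited bulk tables were matched to samples by column name. Expected counts were rounded, and 92 spike-in sequences were left out.

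A P7 barcode counted as a cell with 1000 or more UMIs, 500 or more genes and a mitochondrial share below 15%, and cells were clustered with scanpy 1.11.5 without the members. Sums per library were tested with edgeR 4.0.16 (TMM, filterByExpr, quasi-likelihood, Benjamini-Hochberg adjustment over all genes tested, threshold 0.05), and DESeq2 1.42.0 was an alternative. Shares of cells were compared by two-sided exact permutation over libraries after thinning cells to 2000 UMIs. The fits were tested on simulated counts. All 8 members passed the filter on low counts in each comparison as first fitted, and 6 or 7 did in sums over fewer cells (the Myog-led clusters, cluster 30, or muscle-like clusters of unmarked barcodes). The named genes are the members, the called members of companion lists (where 5 or fewer, or the 4 largest thin filament changes) and the 5 genes most correlated with the members. The members, lists and rules were chosen with earlier results of these data known. Other settings tried were the normalization, the low-count filter, a sex term, the samples in the fit, the cell filters, removal of Scrublet-marked barcodes and leaving out each library. Standard errors and p-values cover the spread between single animals. The upper limit given for mural cells covers counting error over cells only.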

Additional observations from a re-analysis of the deposited data

Results flagged for a closer look

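Tnni1 in Insm1 control 2 at P2, at 1.29 CPM, stood apart from the other 3 controls: its gap to the next control was 0.851 of the whole range, above Dixon's 95% critical value for 4 samples. It was the one such case in 24 groups of 4 libraries tested, where chance gives about 1 in 20. The same control was also the highest for Tnni2, Tnnt2, Tnnc1 and Tnnc2.

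The mutant effect differed between the alleles at P7, by the interaction test, for Tnnc1 (2.29 ± 0.31 on the log2 scale, larger in the Tead1/2 mutants, edgeR adjusted p = 0.00708), Tnni2 (2.09 ± 0.30, 0.00773), Tnnt3 (1.93 ± 0.26, 0.00708), Tnnt2 (1.77 ± 0.28, 0.0103), Tnnc2 (1.37 ± 0.25, 0.0177) and Tnnt1 (1.27 ± 0.23, 0.0175). Muscle-like cells were 19.1% to 25.8% of cells in the Tead1/2 mutants and 12.6% to 14.1% in the Insm1 mutants, and the part of this in the differences was not tested.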

How the results depend on the processing

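The number of members called changed with single libraries, the block, the low-count filter and the tool at P2, and with single libraries and the choice of cells at P7. With the replicate block, 4 members were called in the Insm1 set at P2, beside 64 of 19582 genes, and 5 in the Tead1/2 set, beside 236 of 20247. In the Tead1/2 set only mutant 4 has the number 4, so there the block also takes that library out of the comparison. The block left 0 members for the difference between alleles at P2, and at P7, where it stands for the dissection, 7, 7, 6 and 7 for the Insm1 set, the Tead1/2 set, their difference and the muscle-like comparison. In the same order the P7 fits with the block called 8285, 11674 and 843 of 24602 genes and 5732 of 18420 genes. Same-numbered libraries did not deviate together (correlations of -0.131 to 0.227 at P2 and -0.124 to 0.0365 at P7), so the numbers are not taken as pairs. In the Tead1/2 set at P2, DESeq2 called 2 members and edgeR without a low-count filter 7. Leaving out 1 library gave 4 to 7 calls in the Insm1 set at P2 (4 without control 1), 0 to 7 in the Tead1/2 set (7 without mutant 4) and 4 to 6 for the difference at P7. That difference had 0 calls without Scrublet-marked barcodes and 1 over all barcodes. Among muscle-like cells, 0 members were called in clusters without marked barcodes and 3 in the Myog-led clusters, and the Insm1 set had 3 calls in granule progenitor-like cells; these last 3 settings were chosen after seeing the data. The cause of these changes was not tested.

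Of 905 values of single members under alternatives, 823 kept their direction and their side of the threshold and 9 changed direction, all in values that had not passed the test. The difference at P2 ran from -1.41 to 0.67 for Tnni1 and from -0.74 to 0.61 for Tnnt2 when 1 library was left out. The Tnni3 difference among muscle-like cells ran from -0.071 to 0.38. Tnni3 in granule progenitor-like cells of the Insm1 mutants was at 0.19, and its difference at P7 was -0.61 without marked barcodes. Fewer UMIs per cell limit the shares of cells with a UMI, and 2 controls per allele limit the P7 tests.

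Over all genes, the 135 calls of the Insm1 set at P2 became 312 with DESeq2, 212 without a filter, 64 with the block, 88 with a sex term and as few as 64 without 1 library. The 0 calls of the Tead1/2 set became 960, 1287, 236 and 3 in that order of settings, 4 in a fit of all 15 libraries and 646 without mutant 4. The 0 differences at P2 became 17 with DESeq2, 11 without a filter and at most 8 without 1 library. The 906 differences at P7 became 2133 with DESeq2, 538 without marked barcodes and as few as 195 without 1 library. The 5377 calls among muscle-like cells became 552 without marked barcodes, 1216 in the Myog-led clusters and 2700 in cluster 30.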
